A study of Mus musculus with 5 samples.

Results

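The interferon response and antigen presentation genes of wound keratinocytes from Nrf2 conditional knockout mice were described from 1 comparison of genotypes made by the study's authors. Members were all genes whose symbol begins with Ifi, Ifit, Gbp, Oas or H2-, or with Irf or Stat and a digit, together with Isg15, B2m, Tap1, Tap2, Tapbp, Bst2, Rtp4, Usp18, Xaf1 and Cd74. This took 58 of the 10664 genes in the authors' deposited table. The same rule takes 132 symbols of the mouse annotation, and the other 74, among them Irf7, Irf8 and Ifit3, were not analysed here. Members were placed in groups by a hand-written list based on known function or gene family. The type I interferon group held 20 members and the interferon-gamma group 5. The MHC class I pathway held 15, the MHC class II pathway 5 and the other Irf and Stat genes 11. Ifi202b and H2-Ke6 were not on that list and so were in no group, though Ifi203, of the same family as Ifi202b, was in the type I group.

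The cells came from mouse skin wounds 5 days after wounding. The 2 Nrf2 conditional knockout (cKO) samples carried K14Cre-ER and Nrf2 flox/flox, and the 3 wild-type (WT) littermate samples carried K14Cre-ER and Nrf2 +/+, so both genotypes held the Cre transgene. K14Cre-ER is a tamoxifen-dependent recombinase driven by the keratin 14 promoter, which is active in basal keratinocytes, and other sorted cell types would keep an intact gene. Sorting kept CD49f+ cells that lacked lineage antigens, and their total RNA was amplified with a Nugen Trio kit before sequencing. Nrf2 is the product of Nfe2l2 and switches on antioxidant and detoxifying genes, and the comparison addresses the genes under its control in keratinocytes of a healing wound.

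Type I interferons act through Ifnar1 and Ifnar2, the kinases Jak1 and Tyk2, and a complex holding Stat2 and Irf9 that binds the interferon-stimulated response element (ISRE). Interferon-gamma acts through its own receptor and the gamma-activated site (GAS) in promoters, and induces Irf1, guanylate-binding proteins and MHC genes. MHC class I molecules, made of a heavy chain and beta-2 microglobulin (B2m), show peptides from inside the cell to T cells, while MHC class II molecules are mostly found on professional antigen-presenting cells. Keratinocytes respond to both kinds of interferon.

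No member passed the threshold of an adjusted p (false discovery rate, FDR) under 0.05 in either direction in the authors' deposited table. Over all 10664 genes that threshold was passed by 0.459% as higher and by 2.15% as lower in cKO. The values of the members lay more often above than below 0, with 39 of 58 above and a median log2 fold change of 0.30, against a median of 0.00 and 50.3% above 0 over all genes in the authors' deposited table. All fold changes here are log2 of cKO over WT. At an unadjusted p under 0.05, 9 members (15.5%) were higher and 1 (1.72%) was lower in cKO, beside 2.48% higher and 5.89% lower among all genes in the authors' deposited table. The 9 were Oas1e, Oasl2, Isg15, Ifi27l2a, Ifi47, Gbp2, H2-M3, H2-M2 and Stat5a, and the lower one was Ifitm10. At an FDR under 0.1, an alternative threshold, 6 of 58 members were higher and 0 were lower. Of all 10664 genes, 80 (0.750%) were higher and 296 were lower at that threshold. Those 6 were Gbp2, Ifi47, Oas1e, Oasl2, Stat5a and H2-M2.

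**Figure D1:**
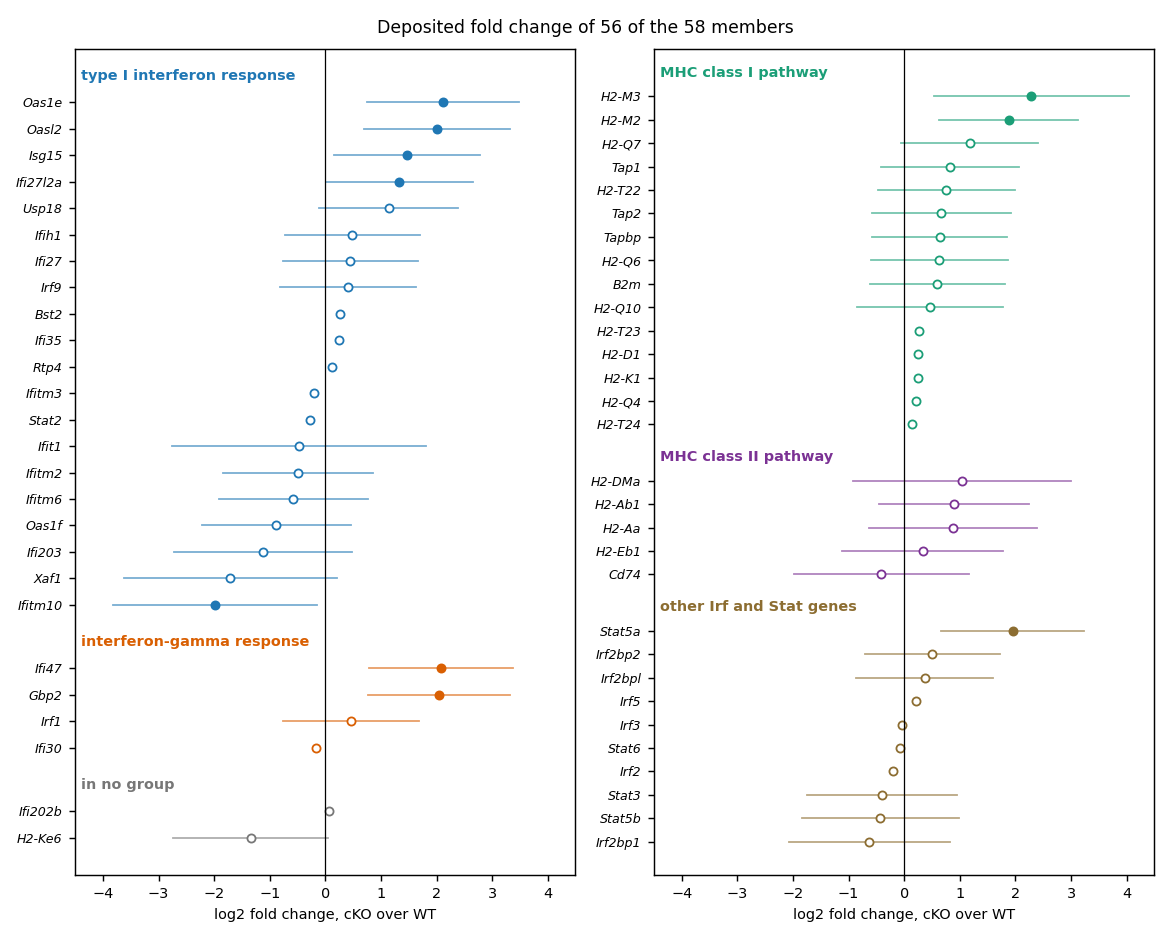
Log2 fold change (cKO over WT) of 56 of the 58 members by group, from the authors' comparison. Lines are 95% intervals implied by the deposited p-values for members with an absolute value of at least 0.3, and filled points mark the 10 members with an unadjusted p under 0.05; all 15 MHC class I genes lie right of 0, while the type I group spreads from -1.98 to 2.12.

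The table holds no value per sample, so the spread between the cKO samples or between the WT samples cannot be given. In its place an implied standard error was computed as the fold change divided by the normal quantile of its p-value. Mean levels are given in CPM, the unit that the authors' deposited table states, which is scaled to a common total. The name of that table holds TPM (a level also scaled for transcript length) and a pseudocount. Whether read counts or TPM values entered the comparison is therefore not known. For the 28 members at 5 CPM or more with an absolute value of at least 0.3, the implied error lay between 0.619 and 0.739. It lay between 0.634 and 1.17 for the 13 such members under 5 CPM. The implied error varied little among members at 5 CPM or more and more widely below that level, and it is not a spread between samples. Over all genes from 5 to 50 CPM its median was 0.635 for values above 0 and 0.712 for values below 0. At 50 CPM or more these medians were 0.618 and 0.689. An equal fold thus tended to get a smaller p when it lay above 0. The smallest called change among genes at 50 CPM or more was 2.58 for higher and 2.48 for lower genes in the authors' deposited table, and among genes from 5 to 50 CPM it was 2.20 for higher and 2.36 for lower genes. All members at 5 CPM or more had smaller absolute values than these. The labels do not say whether each sample is a different animal, and which of the 2 cKO and 3 WT samples entered the authors' comparison is not stated.

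Fold changes varied with mean level over all genes. Genes under 5 CPM had a median of -0.34 and genes at 50 CPM or more a median of 0.10, with 39.6% and 62.2% above 0 in the authors' deposited table. Members were also set beside genes of like level. Among the 23 members from 5 to 50 CPM, 6 (26.1%) had an unadjusted p under 0.05 as higher, beside 2.08% of the 5625 genes in that range. Among the 15 members under 5 CPM there were 3, beside 8.21% of 1681 genes. Among the 20 members at 50 CPM or more there were 0, beside 0.268% of 3358 genes.

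**Figure D2:**
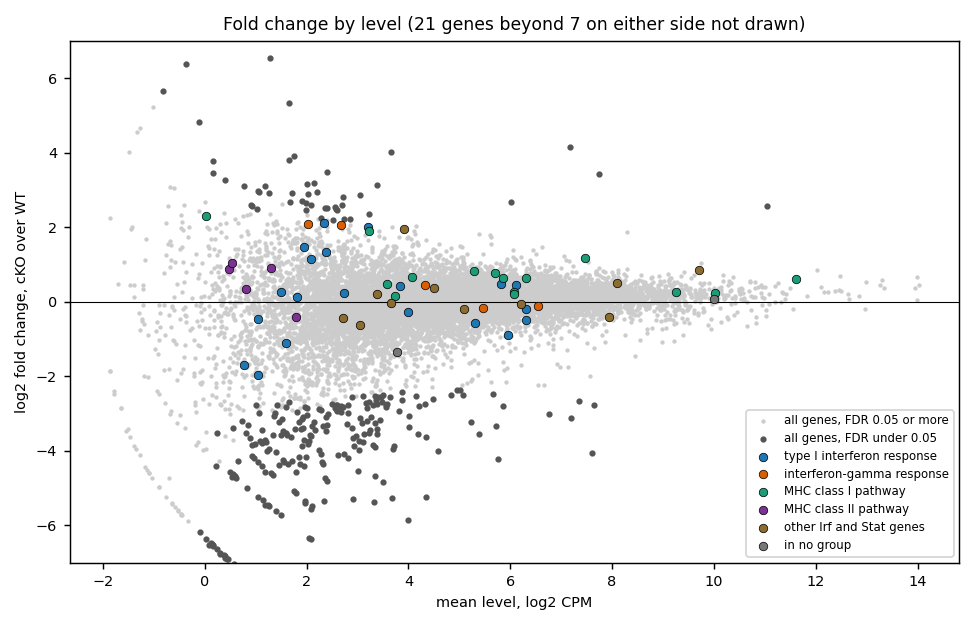
Mean level (log2 CPM) against log2 fold change (cKO over WT) for all genes in grey and the members in colour. The members sit inside the cloud of uncalled genes, and those with values near 2 have mean levels of 4.08 to 15.0 CPM, apart from H2-M3 at 1.02 CPM.

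The targeted gene Nfe2l2 (chromosome 2, 75675513 to 75704641, minus strand, mm10) had a value of -1.99 at 189 CPM and an FDR of 0.126 in the authors' deposited table. Keratinocyte identity genes were abundant, with Krt5 at 1198 CPM and Krt14 at 894 CPM in the authors' deposited table. All 12 listed keratinocyte markers were present, with a median of 0.08 in the authors' deposited table. Here and below, present means kept in that table, whose name says that it was filtered. A listed gene that is not present was not shown to be absent from the cells. The highest levels among these markers were those of Krt10, Dsp, Perp and Krt1, at 15762, 10389, 8110 and 4847 CPM. The share of basal and of other keratinocytes in the RNA was not tested. Markers of other cell types were not balanced between the genotypes. Endothelial markers had a median of -3.40 (10 of 13 listed genes present, 7 called lower), fibroblast markers -2.95 (8 of 12, 6 lower) and melanocyte markers -2.36 (5 of 8, 3 lower) in the authors' deposited table. In bulk samples fewer cells of a type and less RNA per cell cannot be told apart. The Y-linked gene Ddx3y fell by 9.51 and the X-linked Xist rose by 2.58 in cKO (FDR 1.71e-11 for Ddx3y and 0.00557 for Xist, from the authors' deposited table). These 2 values mark groups of unlike sex makeup, and the labels used here name no sex. The part of cell makeup and of sex in the values below was not tested. Without values per sample it cannot be told apart from that of genotype.

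Of 21 listed interferon genes 1 was present, and the others may have been removed by the filter. Ifnk, an interferon made by keratinocytes, had a value of 0.88 at 1.43 CPM (FDR 1.00, from the authors' deposited table). All 9 listed receptor and kinase genes were present and 0 were called. The 2 chains of the type I receptor lay below 0, with Ifnar1 at -1.43 and Ifnar2 at -1.39, where the authors' deposited table puts them at 12.8 and 6.29 CPM. Ifnar1 was the 1 gene of this list with an unadjusted p under 0.05, and the authors' deposited table gave it an FDR of 0.579. The chains of the interferon-gamma receptor lay above 0, Ifngr1 at 0.74 and Ifngr2 at 0.27, and so did Ifnlr1, the receptor chain for type III interferons, at 1.26 (FDR 0.620, from the authors' deposited table). Jak1 and Jak2 had 0.24 and 0.37 and Tyk2 had -0.67 in the authors' deposited table.

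Of the transcription factors that carry the signal, Stat2 had -0.28 and Irf9 had 0.41 at 14.3 CPM in the authors' deposited table. Irf1, induced by interferon-gamma, had 0.45 at 20.1 CPM with an implied 95% interval from -0.77 to 1.68.

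Among the 11 other Irf and Stat genes 5 values lay above and 6 below 0, with a median of -0.05 in the authors' deposited table. Stat5a (chromosome 11, 100859351 to 100885169, plus strand, mm10), which carries signals of cytokines and growth factors, had 1.95 at 15.0 CPM, for which the authors' deposited table gives an FDR of 0.0868. The implied 95% interval ran from 0.67 to 3.23. Its neighbours of the same family lay below 0, Stat5b at -0.43 and Stat3, the main mediator of the interleukin-6 family, at -0.40 in the authors' deposited table. Irf2, Irf3, Irf5 and Stat6 lay between -0.21 and 0.21, and the corepressor genes Irf2bp1, Irf2bp2 and Irf2bpl between -0.63 and 0.51.

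The 20 genes of the type I interferon group lay on both sides of 0, 11 above and 9 below, with a median of 0.18 in the authors' deposited table. Of these 4 had an unadjusted p under 0.05 as higher and 1 as lower, and 0 were called. The highest values were in the oligoadenylate synthetase family, some of whose products activate RNA cleavage in infected cells. That activity was not measured here. Oas1e (chromosome 5, 120786226 to 120795530, minus strand, mm10) had 2.12 and Oasl2 (chromosome 5, 114896936 to 114912234, plus strand) had 2.01, at 5.10 and 9.27 CPM, and the authors' deposited table gives them FDRs of 0.0747 and 0.0835. Their implied 95% intervals ran from 0.76 to 3.48 for Oas1e and from 0.70 to 3.33 for Oasl2. Oas1f, of the same gene cluster as Oas1e, lay on the other side at -0.88 and 62.0 CPM (FDR 1.00, from the authors' deposited table). Oas1 genes are near copies of each other, so the split of reads among them is uncertain.

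Isg15, a ubiquitin-like protein that is attached to other proteins, had 1.47 at 3.88 CPM (FDR 0.427, from the authors' deposited table). Usp18, which removes Isg15 from proteins and dampens the type I receptor, had 1.14 at 4.25 CPM (FDR 0.725, from the authors' deposited table). Ifi27l2a, a small interferon-induced membrane protein, had 1.33 at 5.24 CPM (FDR 0.596, from the authors' deposited table). Ifi27, of the same family as Ifi27l2a, had a lower value of 0.45 at 68.9 CPM in the authors' deposited table. Ifih1, a sensor of double-stranded RNA, had 0.49 at 56.7 CPM. These 2 genes lie at higher levels than the 3 above. Over all genes the quartiles were -1.40 and 0.50 under 5 CPM, and -0.13 and 0.32 at 50 CPM or more.

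Several genes of the type I group had values below 0. Ifit1, which binds viral RNA, had -0.47 at 2.07 CPM with an implied 95% interval from -2.75 to 1.81. Xaf1, which favours cell death, had -1.71 at 1.72 CPM (FDR 0.761, from the authors' deposited table), and Ifi203, of a family that binds nucleic acids, had -1.12 at 3.01 CPM. The antiviral membrane proteins Ifitm2 and Ifitm3 had -0.49 and -0.20, and Ifitm6 had -0.58 in the authors' deposited table. Ifitm2 and Ifitm3 are near copies, and exons of Ifitm2 share 40.9% of their length with another annotated gene on the same strand. Ifitm10, which the rule took by its symbol, had the lowest value of the group, -1.98 at 2.08 CPM (FDR 0.477, from the authors' deposited table). Whether interferon induces each gene of the group in these cells was not tested. Rtp4, Ifi35 and Bst2, the virus-tethering protein tetherin, lay between 0.11 and 0.27.

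The 5 genes of the interferon-gamma group had a median of 0.45, with 3 above and 2 below 0 in the authors' deposited table. Gbp2 (chromosome 3, 142620602 to 142638008, plus strand, mm10), a guanylate-binding protein that attacks the vacuoles of intracellular pathogens, had 2.05 at 6.36 CPM. Ifi47 (chromosome 11, 49076587 to 49096974, plus strand), an immunity-related GTPase, had 2.09 at 4.08 CPM. The authors' deposited table gives both an FDR of 0.0597, the lowest among the members, with implied 95% intervals from 0.77 to 3.32 for Gbp2 and from 0.79 to 3.38 for Ifi47. On the linear scale the values correspond to 4.13-fold for Gbp2 and 4.24-fold for Ifi47. Ifi30, a lysosomal reductase that prepares antigens for MHC class II, had -0.17 at 44.1 CPM in the authors' deposited table. Exons of Ifi47 overlap those of an olfactory receptor gene over 4.49% of their length.

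All 15 genes of the MHC class I pathway had values above 0, with a median of 0.63 and a range from 0.15 to 2.29 in the authors' deposited table. None was called, and 2 had an unadjusted p under 0.05. The classical heavy chain genes H2-K1 and H2-D1 had 0.24 and 0.25 at 1042 and 611 CPM, and B2m, the shared light chain, had 0.60 at 3107 CPM in the authors' deposited table. The implied 95% interval of B2m (chromosome 2, 122147686 to 122153083, plus strand, mm10) ran from -0.62 to 1.81, which holds both no change and a change of more than 1 on the log2 scale. The peptide transporter subunits Tap1 and Tap2 had 0.83 and 0.67, and Tapbp, which holds the transporter to the heavy chain, had 0.63 in the authors' deposited table. Exons of Tap1 overlap those of Psmb9 on the opposite strand over 3.87% of their length.

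Heavy chains with restricted roles gave the largest values of the pathway. H2-M3, which presents formylated bacterial peptides, had 2.29 at 1.02 CPM (FDR 0.226, from the authors' deposited table). H2-M2 had 1.88 at 9.34 CPM (FDR 0.0931, from the authors' deposited table). The implied 95% interval of H2-M2 ran from 0.63 to 3.13. H2-Q7, a gene for the Qa-2 antigen, had 1.18 at 176 CPM (FDR 0.669, from the authors' deposited table), and H2-Q6 beside it had 0.63. H2-T22 had 0.76, and H2-T23, the Qa-1 gene that restrains natural killer cells, had 0.27 in the authors' deposited table. H2-Q10, H2-Q4 and H2-T24 had 0.47, 0.21 and 0.15. Heavy chain genes are close copies that also vary between mouse strains, so the share of reads given to each, and any difference in haplotype between the genotypes, was not tested.

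Since 9 of the 15 genes lay at 50 CPM or more, where values of all genes are shifted upward, they were set beside genes of that level. Their median was 0.60 with 9 of 9 above 0, beside a median of 0.10 and 62.2% above 0 for the 3358 genes at 50 CPM or more in the authors' deposited table. Of the 9, 5 lay above the upper quartile of those genes, which was 0.32. MHC class I genes share their regulators, so their common sign is not a count of independent events, and no test of the group was made.

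**Figure D3:**
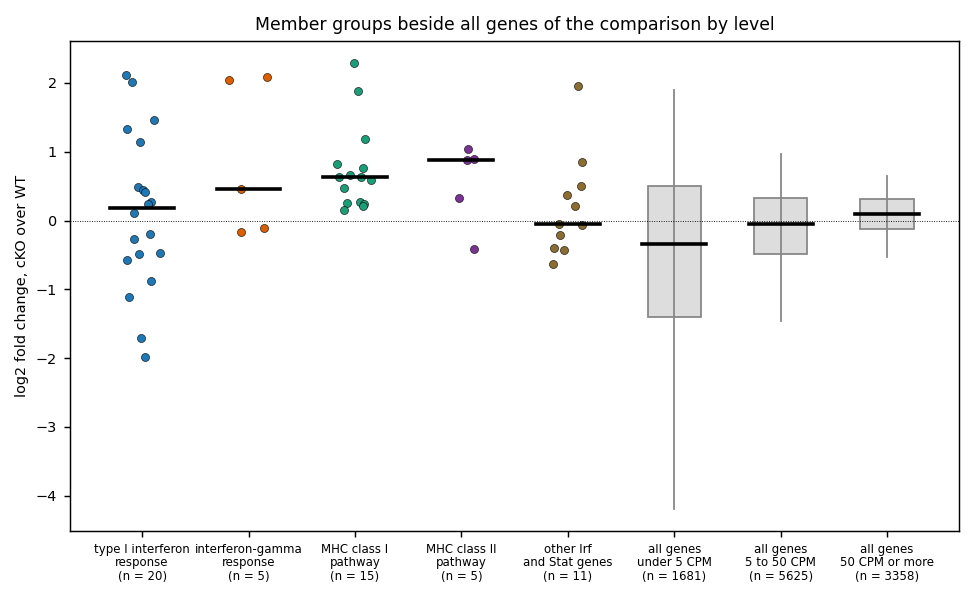
Log2 fold change (cKO over WT) of the members by group, beside all genes of the comparison in 3 ranges of mean level. Points are genes, black bars are medians, boxes span the quartiles and grey lines the 5th to 95th percentiles. The MHC class I median of 0.63 is over 15 members of all levels. The 9 of them at 50 CPM or more have a median of 0.60, beside an upper quartile of 0.32 for all genes at that level.

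The MHC class II pathway was near the lower end of the measured levels. Its 5 genes had mean levels of 1.39 to 3.47 CPM and a median of 0.88, with 4 above and 1 below 0 in the authors' deposited table, and 0 had an unadjusted p under 0.05. H2-Aa and H2-Ab1, the 2 chains of one class II molecule, had 0.88 and 0.90, H2-Eb1 had 0.33 and the peptide-loading gene H2-DMa had 1.04 in the authors' deposited table. Cd74, the invariant chain that accompanies class II molecules, had -0.41 with an implied 95% interval from -1.99 to 1.16. Exons of H2-DMa share 360 bases with Brd2 on the opposite strand, and whether counting used strand is not stated. Of 17 listed macrophage and dendritic cell markers 2 were among the analysed genes, Cd68 at 1.46 and Itgam at -0.61, for which the authors' deposited table gives 1.87 and 6.24 CPM. Of 6 listed Langerhans cell markers 3 were present, with a median of -0.87 and Mfge8 called lower (-3.41, FDR 0.00914, from the authors' deposited table), and Cd207 was not analysed here. Of 18 listed T and NK cell markers 1 was present, Thy1 at -1.09, which is also counted among the fibroblast markers above. Of 7 B cell markers 0 were present. Of 11 neutrophil markers 3 were present, with a median of -1.83 and S100a9 called lower (-2.48 in the authors' deposited table). Which cells the RNA of these markers came from was not tested, nor was the part of these cell types in the class II values.

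Between the groups, medians ran from 0.18 (type I interferon) through 0.45 (interferon-gamma) and 0.63 (MHC class I) to 0.88 (MHC class II) in the authors' deposited table. The ranges overlapped throughout, with the type I group reaching both the lowest value of all members, -1.98, and values above 2. The share of genes above 0 was 55.0% for type I interferon, 60.0% for interferon-gamma, 100% for MHC class I and 80.0% for MHC class II genes. The differences between groups were not tested, and 2 of the 4 medians rest on 5 genes each. Centred on genes at 16 CPM or more, the type I median was 0.11. Over members at 5 CPM or more the type I median was 0.33 and the interferon-gamma median 0.17, which turned their order round.

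Genes of the same pathways outside the members were also compared with all genes, of which 0.459% were called higher and 2.15% lower. Of the 52 listed interferon-induced effectors 32 were present, 17 above and 15 below 0, with a median of 0.12. Of these 1 was called higher and 1 lower in the authors' deposited table. At an unadjusted p under 0.05, 3 effectors (9.38%) were higher, beside 2.48% of all genes. Lower at that p were 2 effectors (6.25%), beside 5.89% of all genes. The called genes were Cxcl9, a chemokine induced by interferon-gamma, which rose by 2.23 at 7.23 CPM (FDR 0.0310), and Lgals3bp, a secreted glycoprotein, which fell by 3.65 at 7.53 CPM (FDR 0.00283, from the authors' deposited table). Cd274, which encodes the checkpoint ligand PD-L1, had 1.80 at 41.9 CPM (FDR 0.124, from the authors' deposited table). Trim21, an antibody receptor in the cytosol, had 1.71 and Trim30a had -2.53, each with an unadjusted p under 0.05. Cxcl10, induced by both kinds of interferon, had 0.15 in the authors' deposited table.

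In antigen processing, 19 of 25 listed genes were present, 13 above and 6 below 0, with a median of 0.15 in the authors' deposited table. Cd1d1, which presents lipids to natural killer T cells, was called lower, at -6.91 and a mean level of 1.37 CPM (FDR 0.00500, from the authors' deposited table). Lgmn, a lysosomal protease, had -1.70 (FDR 0.333, from the authors' deposited table). The immunoproteasome subunits Psmb8, Psmb9 and Psmb10 had 0.44, 0.43 and 0.95, and Erap1, which trims peptides for class I molecules, had 0.97, all uncalled in the authors' deposited table. Nlrc5, the transactivator of class I genes, had 0.32 at 118 CPM. The chaperones Calr, Canx and Pdia3 lay between -0.01 and 0.11. Of 20 listed sensors and adaptors 13 were present and 0 were called. Aim2, a sensor of cytosolic DNA, had 2.15 at 3.57 CPM (FDR 0.0674 and the 1 gene of the list with an unadjusted p under 0.05), while Cgas and Ddx58 had -0.01 and -0.30 in the authors' deposited table. All 14 listed inhibitors were present, with a median of 0.06 and 0 called, and Socs1 and Socs3, which block the receptor kinases, had -0.33 and -0.72 in the authors' deposited table.

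**Figure D4:**
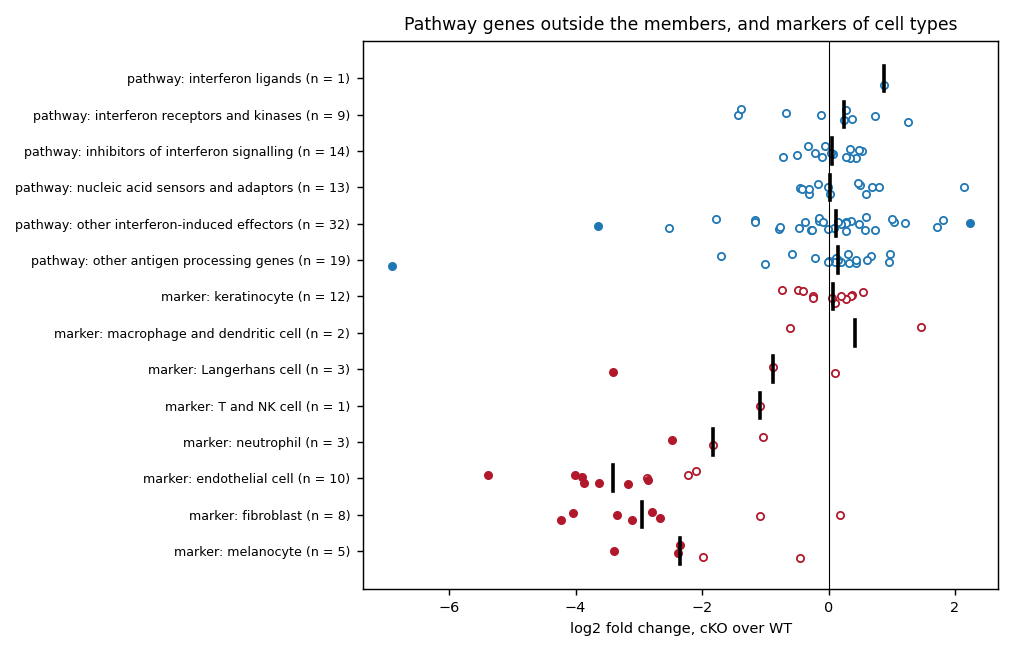
Log2 fold change (cKO over WT) of pathway genes that are not members (blue) and of cell type markers (red), by list. Filled points passed an FDR of 0.05 and black bars are medians; the pathway lists of more than 1 gene have medians from 0.02 to 0.24, while endothelial, fibroblast and melanocyte markers have medians of -3.40, -2.95 and -2.36.

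Promoter sequence was then searched for the elements that interferon-activated factors bind. RefSeq promoters (GRCm38.p6, the assembly behind mm10) were matched by symbol for 47 of the 58 members, with 1 start site per gene, and the 200 bases before the start were searched on both strands. The motifs were the ISRE, taken as 2 copies of GAAA with NN between them, a shorter interferon regulatory factor (IRF) element, AANNGAAAC, the GAS, TTCNNNGAA, and the antioxidant response element of Nrf2, TGACNNNGC. The ISRE and IRF element can overlap at the same place. The 4 promoters printed here show a gene with a value near 2 (Gbp2), one with several tandem matches (Isg15), and both parts of the classical class I molecule (B2m and H2-K1). Capitals mark matches to the ISRE or the IRF element, and each line reads 5′ to 3′ on the strand of the gene, ending at the base before the RefSeq start site.
Gbp2, chr3:142620463-142620662, plus strand: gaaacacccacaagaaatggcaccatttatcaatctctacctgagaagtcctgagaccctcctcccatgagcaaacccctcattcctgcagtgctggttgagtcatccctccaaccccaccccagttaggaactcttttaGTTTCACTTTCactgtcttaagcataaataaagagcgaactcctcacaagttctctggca
Isg15, chr4:156200819-156201018, minus strand: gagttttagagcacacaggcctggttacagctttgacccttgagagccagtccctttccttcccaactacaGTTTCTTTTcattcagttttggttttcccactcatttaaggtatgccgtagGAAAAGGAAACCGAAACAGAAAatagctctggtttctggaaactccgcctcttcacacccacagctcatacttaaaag
B2m, chr2:122147487-122147686, plus strand: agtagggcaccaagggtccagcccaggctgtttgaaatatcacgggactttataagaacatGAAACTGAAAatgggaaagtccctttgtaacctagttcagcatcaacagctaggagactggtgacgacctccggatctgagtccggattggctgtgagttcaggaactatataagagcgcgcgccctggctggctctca
H2-K1, chr17:34000348-34000547, minus strand: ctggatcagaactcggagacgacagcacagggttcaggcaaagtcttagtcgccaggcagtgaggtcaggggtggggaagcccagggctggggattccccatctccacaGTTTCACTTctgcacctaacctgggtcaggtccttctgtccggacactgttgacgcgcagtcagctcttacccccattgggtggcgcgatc

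An ISRE match was present in 8 of the 47 member promoters, beside 2.33% of all 27025 promoters. An IRF element was present in 15 of them (31.9%), beside 3.79% of all promoters. In the MHC class I pathway 9 of 13 promoters held the IRF element, and the match in H2-D1 reads GTTTCACTT on the gene's strand, as in H2-K1. Heavy chain genes are close copies, so their matches may not be independent, and the promoters were not aligned with one another. GAS matches were present in 5 member promoters, beside 5.62% of all promoters, and antioxidant response element matches also in 5, beside 8.61% of all promoters. Among promoters of the analysed genes, 853 of 8329 held the antioxidant element, a share close to the 5 of 47 among members. The ISRE, IRF element and GAS were rarer among promoters of the analysed genes than among all promoters. The antioxidant matches were in the windows of H2-K1, H2-M2, H2-Q10, H2-T22 and Oasl2, whose values ranged from 0.24 to 2.01 in the authors' deposited table.

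The 18 member promoters with an ISRE or IRF element had 15 values above 0 and a median of 0.53, while the 29 without either had 15 above 0 and a median of 0.07 in the authors' deposited table. Of the 18, 11 were MHC class I genes, all above 0, as were the 2 class I genes without an element. Outside MHC class I, 4 of 7 members with an element and 13 of 27 without lay above 0, with medians of 0.27 and -0.05 in the authors' deposited table. Among genes that are not members, 315 with either element had a median of 0.05 and 7967 without had a median of 0.00. The difference between promoters with and without an element was not tested. Oasl2, with a value of 2.01, held neither element in this window, and Ifit1, which held both, had -0.47 in the authors' deposited table.

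Position was the last feature compared. Of the 58 members 19 lie in the MHC region of chromosome 17 and 7 on chromosome 11, with none on X or Y. Inside the region, which spans 3.57 Mb, MHC members had values above 0 along its whole length, apart from H2-Ke6, and the genes that are not members lay on both sides of 0.

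**Figure D5:**
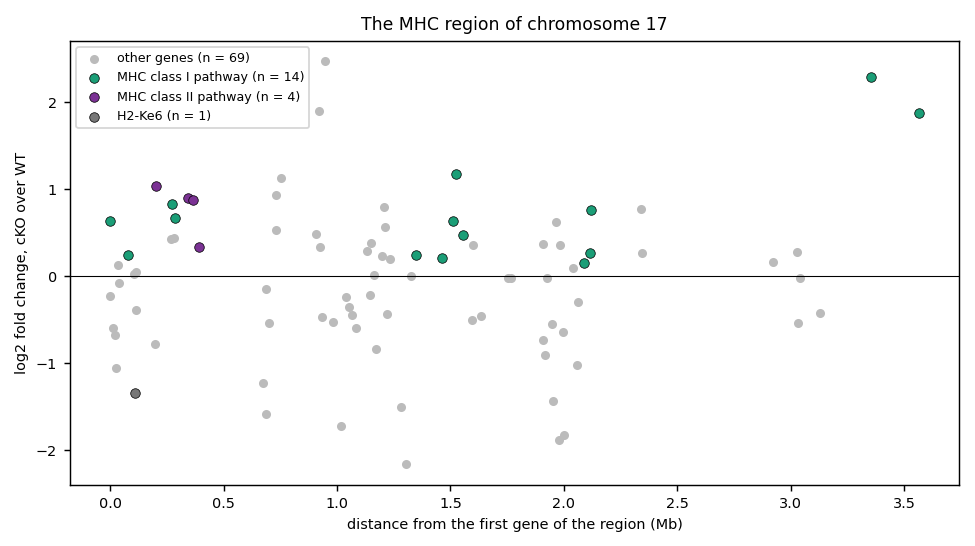
Log2 fold change (cKO over WT) of genes in the MHC region against distance from the region's first gene (Mb). Members of the class I (14) and class II (4) pathways lie above 0, H2-Ke6 lies at -1.35, and the 69 other genes (grey) spread from -2.16 to 2.48.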

How the data were processed

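The deposited values are the authors' comparison of WT and cKO keratinocytes, which lists 10664 genes; per the file headers each has a log2 ratio, a level (log2 CPM), a p-value and an FDR. Per the submitters' processing notes, Trimmomatic 0.35, STAR 2.6.0c, RSEM and the build mm10 were used. The tool behind the deposited p-values and the depth per sample are not given in the sources used here. The first sheet's FDR equals a Benjamini-Hochberg adjustment of its p-values to within 7.17e-15. Text notes beside 2 entries of the second sheet show that positive deposited log2 values are higher in WT, so signs were turned to cKO over WT. Levels read as powers of 2 sum to 1.00436e+06 CPM.

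The authors' FDR under 0.05 over all genes was the call. Symbols and positions came from GENCODE vM21 (10655 genes matched). Implied standard errors came from the deposited p-values by a normal approximation. The code was tested on simulated data. Members and lists were chosen with earlier results of these data known. Genes named were all members with an unadjusted p under 0.05, the most abundant and most changed of each group, fixed core genes and the leading genes of each list; others, such as H2-Q6, Usp18, Xaf1 and Cxcl10, were chosen after their values were seen. Alternatives were the Benjamini-Yekutieli adjustment, other thresholds, level filters, an empirical null, another centre, another split of the groups and leaving out members of other function. Scripts ran in Python 3.11.15 with SciPy 1.17.1, pandas 2.3.3 and NumPy 2.4.6, and matplotlib 3.10.9 drew the figures. The values of 2 members are counted in the groups and not reported here by name.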

Additional observations from a re-analysis of the deposited data

How the results depend on the processing

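No member was called under the Benjamini-Yekutieli adjustment, a level filter of 5 CPM, a threshold of 0.01 or without the members of other function (among them Irf2bp1, Irf2bp2, Irf2bpl and H2-Ke6). A threshold of 0.1 called 6 members higher and 0 lower, beside 80 of all 10664 genes higher and 296 lower. An empirical null (z divided by its robust SD of 0.804) called 7 higher, beside 1.39% of all genes. These were Gbp2, Ifi47, Oas1e, Oasl2, Stat5a, H2-M2 and H2-M3. It called 0 members lower, and the share of all genes lower was not computed for it. With at least 5 CPM the type I interferon median was 0.33 and the interferon-gamma median 0.17, so their order turned round, and the class II group, all under 5 CPM, had no value. Centring on genes at 16 CPM or more, a shift of 0.07, gave medians of 0.11 for type I interferon, 0.39 for interferon-gamma, 0.56 for class I and 0.81 for class II genes. With Ifi203 and Ifi35 moved to the interferon-gamma group its median was 0.24. Of 26 adjusted p-values recomputed for the 10 members with an unadjusted p under 0.05, 19 stayed on their side of the threshold and 7 passed, all under the empirical null; 4 of the 10 lie under 5 CPM. Gbp2 ranged from 0.00328 to 0.589. No paired analysis was possible because values for single samples were not analysed here. Leaving out each replicate was not run for that reason too.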

Other observations

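The MHC members lie among other genes, most of them of other function, though Psmb8 and Psmb9 also serve antigen processing. Between the first and the last MHC member on chromosome 17 (33915899 to 37483552, mm10), 19 members and 69 other genes were analysed. Of the members 18 had values above 0, and the median of the members was 0.64. The exception was H2-Ke6 (a steroid dehydrogenase gene, also annotated as Hsd17b8) at -1.35. Exons of H2-Ke6 share 86.4% of their length with another annotated gene on the same strand. Of the 69 other genes 29 lay above 0, with a median of -0.15 in the authors' deposited table. Among the others 1 was called, the complement gene C2, which rose by 2.48 (FDR 0.0311, from the authors' deposited table) and was chosen after its value was seen. The difference between members and neighbours was not tested. Ifi202b, an interferon-inducible gene of the family that binds nucleic acids, had 0.07 at 1026 CPM in the authors' deposited table.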
